A study of Rattus norvegicus with 145 samples.

Results

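The genes described here are 9 regulators of hepatocyte transcription in rat liver, namely the factors Hnf4a, Foxa1, Foxa2, Foxa3, Cebpa and Cebpb and the nuclear receptors Nr1i2, Nr1i3 and Ppara. They were taken by symbol from the deposited counts of 17337 genes, in which all 9 were found, and all 9 passed the filter on low counts in each of 5 data sets. The study gave Wistar rats acetamide, a small amide found as a food contaminant, by daily gavage in water, and sequenced mRNA of the left liver lobe. There were 29 groups of 5 rats. Experiment A held males of strain Hsd:WI, 9 to 10 weeks of age, dosed for 7 days with vehicle, 30, 100, 300 or 1000 mkd (mg/kg/day). Experiment B held males and females of strain Crl:WI, 8 to 10 weeks of age, dosed for 7 or 28 days with vehicle, 300, 500, 750, 1000 or 1500 mkd. The animals carried no transgene or other genetic change in the labels. The vehicle males of 28 days carry the exposure tag of experiment A, but their title and strain place them in experiment B, where they were kept. The question was whether the liver's own regulators moved with dose, and whether they differed by sex, duration and experiment.

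HNF4α is a nuclear receptor that holds the hepatocyte programme in place, and the FOXA proteins open chromatin for it and for other factors at liver genes. C/EBPα serves the metabolic genes of the resting hepatocyte, whereas C/EBPβ is the family member known for the acute phase and for regeneration. PXR (Nr1i2) and CAR (Nr1i3) sense foreign compounds and induce cytochromes P450, conjugating enzymes and transporters, and PPARα (Ppara) is a lipid sensor that drives fatty acid oxidation in fasting.

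The reads assigned to genes numbered from 15449716 to 39986531 in a rat (median 28262376). Every member had at least 199 reads in every rat, so counting error was small against the spread between rats. Levels are given as CPM (counts scaled to a common library size), with TMM factors computed over all rats together. They are not divided by gene length, so levels are compared between rats and not between genes. The SD within a group had a median of 17.3% of the mean for Hnf4a, 18.3% for Nr1i2 and 23.5% for Cebpa. It was 27.5% for Foxa3, 30.1% for Cebpb, 31.8% for Ppara, 34.5% for Foxa2, 34.6% for Foxa1 and 36.3% for Nr1i3. By this measure Hnf4a varied least from rat to rat and Nr1i3 most. Group means of Hnf4a ran from 626 to 958 CPM, and those of Nr1i3 from 27.7 to 163 CPM. The tissue was checked by the summed level of 10 hepatocyte markers, which was between 92784 and 391127 CPM in all rats of the vehicle and highest dose groups. Marker sums add CPM, so genes at high levels, such as Alb among the hepatocyte markers, weigh most.

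**Figure D1:**
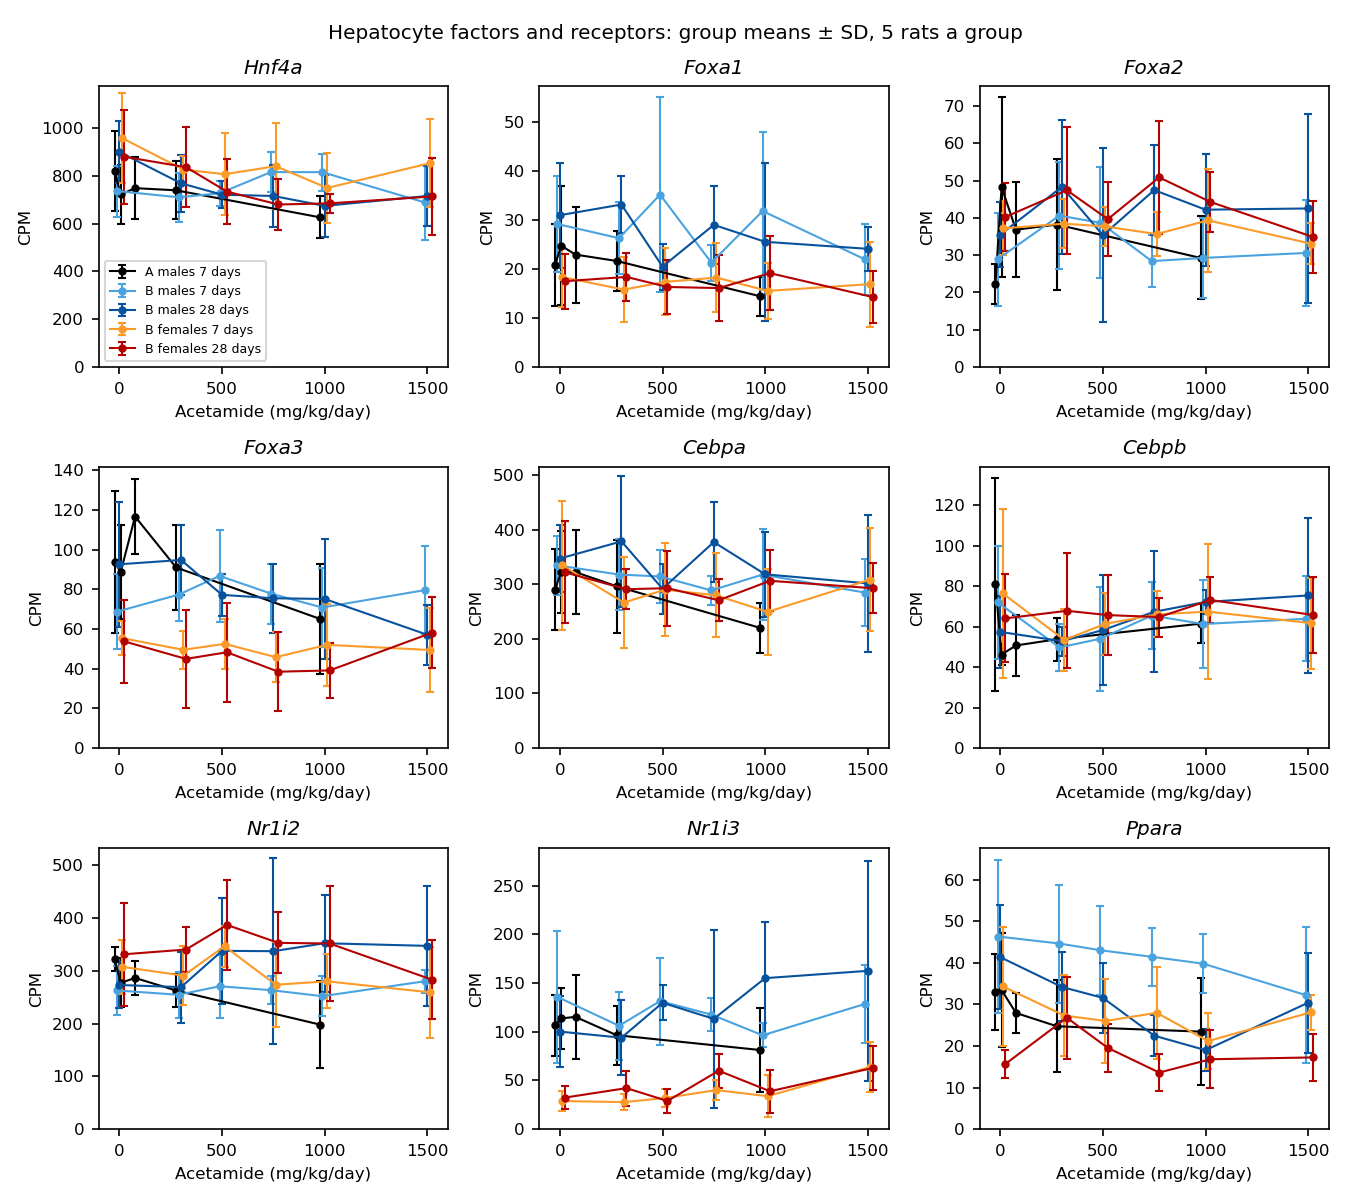
Group means and SD (5 rats a group) of the 9 members in CPM against the dose in mg/kg/day, with 1 line for each data set (black, experiment A males of 7 days; light and dark blue, experiment B males of 7 and 28 days; orange and red, experiment B females of 7 and 28 days). Nr1i3 lies lower in females than in males at every dose, while most other members overlap across data sets and doses.

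A promoter was found by symbol in the RefSeq table for 8 of the 9 members, all but Foxa1. The last 100 bases before the table's start site are shown for members whose levels differed by sex or dose below, on build GRCr8, so that the starts of these genes can be compared. Capitals mark the TATA box (TATAAA), the CCAAT box and, for the GC box, the letters GGGCGG, each on either strand.
Nr1i3 (chr13:86165320-86165419, + strand): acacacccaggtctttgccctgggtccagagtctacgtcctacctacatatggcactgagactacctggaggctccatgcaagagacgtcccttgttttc
Ppara (chr7:118712507-118712606, + strand): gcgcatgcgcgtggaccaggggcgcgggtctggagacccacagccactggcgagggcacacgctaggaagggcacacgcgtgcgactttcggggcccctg
Nr1i2 (chr11:75965617-75965716, + strand): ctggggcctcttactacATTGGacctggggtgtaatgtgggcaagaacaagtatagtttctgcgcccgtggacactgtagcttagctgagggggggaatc
Foxa3 (chr1:87799486-87799585, - strand): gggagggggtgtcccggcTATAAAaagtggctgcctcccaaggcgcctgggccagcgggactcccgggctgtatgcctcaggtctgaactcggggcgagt
Cebpa (chr1:96896484-96896583, + strand): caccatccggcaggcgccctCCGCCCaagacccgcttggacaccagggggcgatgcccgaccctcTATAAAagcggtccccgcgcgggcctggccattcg

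Cebpa and Foxa3 showed TATAAA in these 100 bases, and Nr1i3 and Ppara showed none of the marked motifs there. Over the full 250 bases before the start, TATAAA was in 4 of the 8 promoters, against 13.1% of 27457 promoters of the table. GGGCGG was in 5 of 8 (32.4% of all) and CCAAT in 3 of 8 (34.3% of all). The motifs CAAAGTCCA (HNF4), TGTTTAC (FOXA), TTGCNNCAA (C/EBP) and TTCNNNGAA (STAT5) were in 0 of 8, and in 0.331%, 3.25%, 1.74% and 7.52% of all promoters. The motifs were searched on both strands, and their matches can overlap. These matches describe the letters of a short window only.

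Nr1i3 differed between the sexes in vehicle rats at both times, and Ppara, Foxa1 and Foxa3 did so at 28 days. In vehicle rats of 7 days, Nr1i3 was at 112, 165, 239, 95.2 and 67.8 CPM in the males and at 26.3, 18.3, 34.1, 21.1 and 44.2 CPM in the females. The ranges did not overlap. Nr1i3 was 4.75-fold higher in males (log2 difference 2.25, SE 0.35, adjusted p = 0.000146), the only member called at 7 days, where 10.7% of all genes tested were called. After 28 days the vehicle males were at 105, 158, 66.6, 72.8 and 97.9 CPM and the females at 48.5, 40.1, 30.7, 20.8 and 21.6 CPM, again without overlap, a 3.09-fold difference (log2 1.63, SE 0.34, adjusted p = 0.00234). The mean of the males was above that of the females in all 12 pairs of groups matched for dose and duration, by 1.89- to 4.72-fold. In 8 of the 12 pairs every male was above every female.

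Ppara differed by sex at 28 days, when the vehicle males were at 50.8, 54.5, 30.7, 45.0 and 25.8 CPM and the females at 15.3, 18.3, 11.7, 19.5 and 13.3 CPM. All males were above all females (2.64-fold, log2 1.40, SE 0.30, adjusted p = 0.00313). At 7 days the means were 46.3 ± 18.5 CPM in males and 34.3 ± 14.2 CPM in females (SD, n = 5), the groups overlapped and the difference was not called. Vehicle females had less Ppara at 28 than at 7 days, 15.6 ± 3.28 against 34.3 ± 14.2 CPM (log2 -1.12, SE 0.30), which missed the threshold in edgeR (adjusted p = 0.0644; 1.11% of all genes called) and passed in DESeq2 (adjusted p = 0.0102). The females of 7 days were at 21.0, 17.1, 40.5, 46.0 and 47.0 CPM.

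Foxa1 and Foxa3 were also called higher in vehicle males at 28 days, so that 4 of 9 members were called there, all in that direction. Of all genes 17.3% were called in either direction. Foxa1 was at 30.9 ± 10.7 CPM in males and 17.5 ± 5.57 CPM in females (1.76-fold, adjusted p = 0.0475). Foxa3 was at 92.6 ± 31.6 and 53.7 ± 20.7 CPM (1.72-fold, adjusted p = 0.0419). The ranges overlapped for both. Foxa1 lost its call when any 1 of 8 of the 10 rats was left out (adjusted p from 0.0581 to 0.163), and Foxa3 when any 1 of 7 was (from 0.05002 to 0.127). The Foxa1 call stayed without replicate 1 of the males and replicate 4 of the females, and the Foxa3 call without replicate 2 of the males and replicates 1 and 2 of the females. Male means of Foxa1 were above female means in all 12 matched pairs of groups, and those of Foxa3 in 11 of 12. The other members, Hnf4a, Foxa2, Cebpa, Cebpb and Nr1i2, were not called between the sexes at either time.

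**Figure D2:**
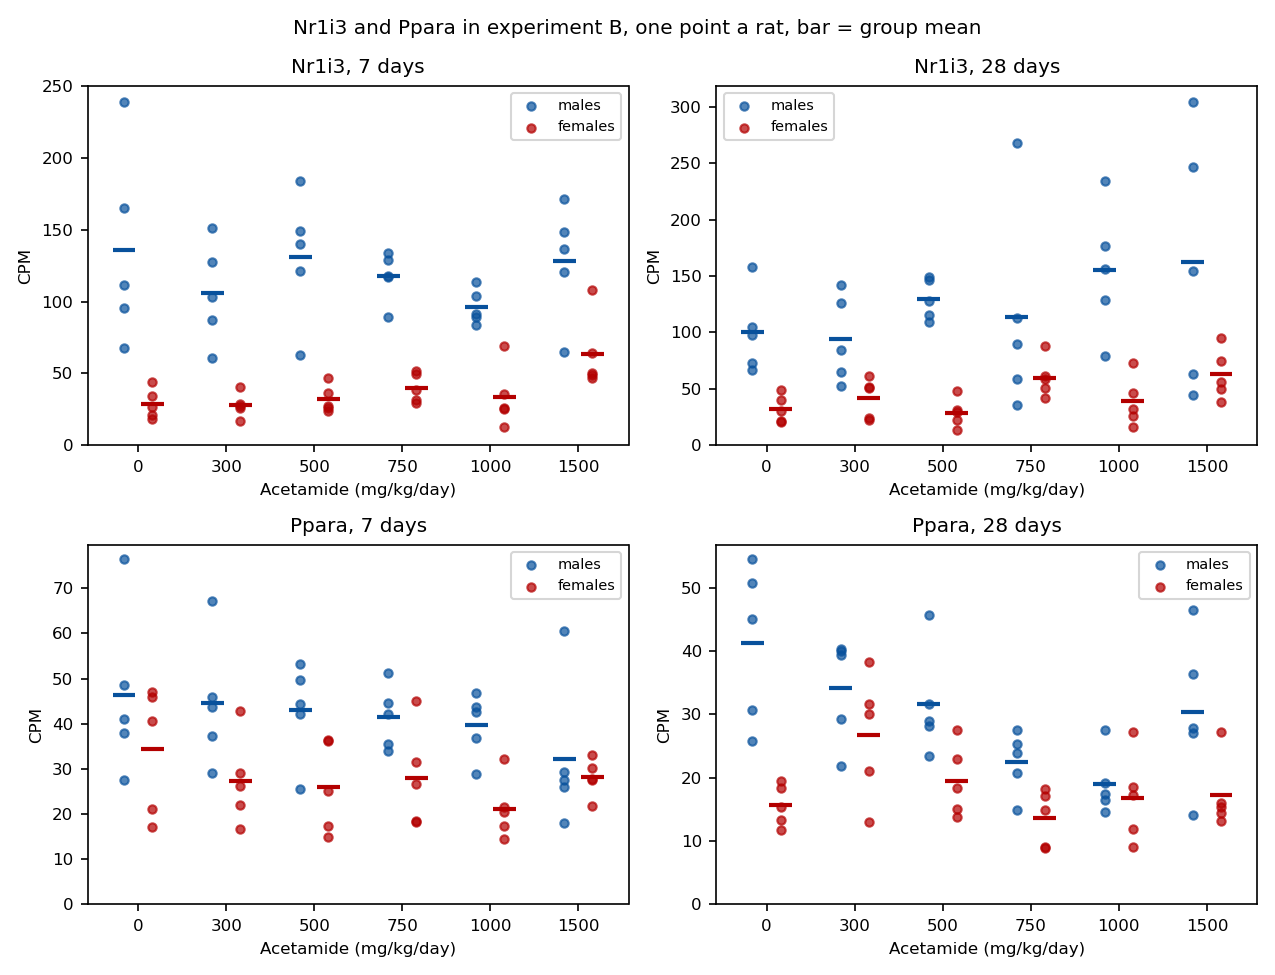
CPM of Nr1i3 (upper row) and Ppara (lower row) in each rat of experiment B after 7 days (left) and 28 days (right) against dose in mg/kg/day, in males (blue) and females (red), where a point is a rat and a bar the mean of 5 rats. Male means lie above female means for Nr1i3 at every dose, with single rats overlapping in 4 of the 12 pairs of groups (1500 mkd at 7 days, and 300, 750 and 1500 mkd at 28 days), and the sexes separate for Ppara in the vehicle rats of 28 days.

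Nr1i3 was also the member that changed with dose in females. In females of 7 days the rats at 1500 mkd were at 50.4, 49.1, 46.5, 64.2 and 108 CPM, all 5 above the highest vehicle rat at 44.2 CPM. The level rose with dose over the 30 rats, by 0.76 on the log2 scale for each 1000 mkd (SE 0.18, adjusted p = 0.0170), a call that 5.44% of all genes shared. The contrast of 1500 mkd with vehicle was 2.22-fold (log2 1.15, SE 0.33) and missed the threshold in edgeR (adjusted p = 0.0804) but not in DESeq2 (adjusted p = 0.0236). Means at 300, 500, 750 and 1000 mkd were 27.7, 31.9, 40.0 and 33.8 CPM, against 28.8 CPM in vehicle rats.

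In females of 28 days Nr1i3 was at 49.6, 95.2, 75.0, 38.2 and 55.6 CPM at 1500 mkd, with 4 of the 5 rats above the highest vehicle rat at 48.5 CPM. The slope was 0.58 per 1000 mkd (SE 0.23) and just missed the threshold in edgeR (adjusted p = 0.0547), where 27.3% of all genes were called, and passed in DESeq2 (adjusted p = 0.0411). The contrast at 1500 mkd gave 1.94-fold (log2 0.96, SE 0.37), with an adjusted p of 0.0664 in edgeR and 0.0418 in DESeq2. Means at 300, 500, 750 and 1000 mkd were 42.05, 28.9, 59.9 and 38.8 CPM, against 32.3 CPM in vehicle rats, so the rise was not steady. At 750 mkd 4 of the 5 rats were above all vehicle rats (log2 0.89, SE 0.37, adjusted p = 0.237 in edgeR). In males of 28 days the means went from 100 ± 36.4 CPM in vehicle rats to 163 ± 113 CPM at 1500 mkd, where the 5 rats spread from 44.3 to 304 CPM, and the slope of 0.56 (SE 0.26, adjusted p = 0.103) was not called. In males of 7 days the slope was -0.06 (SE 0.16, adjusted p = 0.866). The change of Nr1i3 at 1500 mkd was 1.24 lower on the log2 scale in males than in females at 7 days (SE 0.56), which had an unadjusted p of 0.0322 and an adjusted p of 1.00, so a different response of the sexes was not shown. At 1500 mkd the males of 7 days averaged 129 CPM and the females 63.7 CPM. In females of 28 days the summed hepatocyte markers lay between 196477 and 391127 CPM in vehicle rats and between 96920 and 196073 CPM at 1500 mkd, with 3 of 10 called lower and 1 higher, and 4 of 11 macrophage markers were called higher (sums from 1038 to 1223 and from 1185 to 2171 CPM). There 2 of 9 markers of T and NK cells, 2 of 5 endothelial and 2 of 8 stellate markers were called higher and 2 of 3 erythroid markers lower. Of the cholangiocyte markers 1 of 4 and of the neutrophil markers 1 of 3 were called higher. Of all genes 11.3% were called higher and 8.19% lower. Their part in the level of Nr1i3 was not tested.

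The genes whose levels followed Nr1i3 most closely within groups were Tomm40l (Pearson r = 0.71 over all rats, computed on deviations from the group means, among 11066 genes) and Pcp4l1 (r = 0.60), followed by Notum (r = 0.56). In the RefSeq gene order, Pcp4l1 and Tomm40l are the tested genes on either side of Nr1i3. Tomm40l lies on the opposite strand and overlaps Nr1i3 in that annotation, and whether HTSeq was set to use strand is not given in the sources used here, so reads of the shared stretch are uncertain. Pcp4l1 does not overlap it. Pcp4l1 was also higher in vehicle males, at 7 days (log2 2.46, SE 0.40, adjusted p = 0.00026) and at 28 days (log2 1.498, SE 0.39, adjusted p = 0.0122). Tomm40l was higher in vehicle males at 7 days (log2 1.34, SE 0.33, adjusted p = 0.0100) but was not called at 28 days (log2 0.75, adjusted p = 0.119). Tomm40l rose with dose in females of 7 days (0.40 per 1000 mkd, adjusted p = 0.0280) and males of 28 days (0.73, adjusted p = 0.0319). Lrp3, placed 2 tested genes from Cebpa, was likewise the gene most like Cebpa (r = 0.73). Such a neighbour, within 3 tested genes and among the 3 most alike, was found for 2 of the 9 members and for 3.54% of 10287 placed genes.

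In experiment A at 1000 mkd, PXR was the member that fell. Nr1i2 was at 326, 350, 293, 334 and 307 CPM in the vehicle rats and at 280, 101, 286, 148 and 177 CPM at 1000 mkd, so all 5 treated rats were below every vehicle rat. The fold was 0.627 (log2 -0.67, SE 0.20, adjusted p = 0.0140), and 30.7% of all genes were called at this dose. Without replicate 4 of the 1000 mkd rats the adjusted p was 0.0501, and with the other doses left out of the fit it was 0.0786, the highest of 7 alternatives (the lowest was 0.00461). The level was lower in 8 of the 9 members at 1000 mkd, with a median log2 fold change of -0.37 against 0.00 over all genes, and Foxa2 alone was higher (29.3 ± 11.1 against 22.2 ± 5.33 CPM).

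In the test of a trend with dose 4 of 9 members were called lower, against 45.9% of all genes called in either direction. The slopes per 1000 mkd were -0.58 for Nr1i2 (SE 0.17, adjusted p = 0.00609), -0.49 for Cebpa (SE 0.19, adjusted p = 0.0333), -0.66 for Foxa1 (SE 0.26, adjusted p = 0.0392) and -0.59 for Foxa3 (SE 0.23, adjusted p = 0.0414). Cebpa was at 383, 280, 337, 261 and 189 CPM in vehicle rats and at 266, 156, 244, 189 and 245 CPM at 1000 mkd. Foxa1 was at 17.9, 14.8, 18.2, 35.6 and 17.3 CPM in vehicle rats and at 12.3, 10.2, 19.6, 12.4 and 17.6 CPM at 1000 mkd. The groups overlapped for both. Means of Cebpa were 290, 323, 322, 296 and 220 CPM in order of dose, so that the group at 1000 mkd was the one below the vehicle mean. Foxa3 was at 74.3, 71.0, 66.5, 152 and 106 CPM in vehicle rats and at 63.7, 44.2, 104, 34.3 and 79.7 CPM at 1000 mkd.

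Of these trends, that of Nr1i2 was called in all 25 fits that left out 1 rat. Cebpa was lost without replicate 2, 4 or 5 at 1000 mkd (adjusted p 0.147, 0.109 and 0.0541). Foxa1 was lost without 1 of 6 rats (from 0.0510 to 0.143), which were vehicle replicate 4, replicate 1 at 30 mkd and replicates 1, 2, 4 and 5 at 1000 mkd. Foxa3 was lost without 1 of 8 rats (from 0.0506 to 0.176), which were vehicle replicate 4, replicate 5 at 30 mkd, replicates 3, 4 and 5 at 100 mkd and replicates 1, 2 and 4 at 1000 mkd. With the rank of the dose group in place of the dose, Nr1i2 alone was called.

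**Figure D3:**
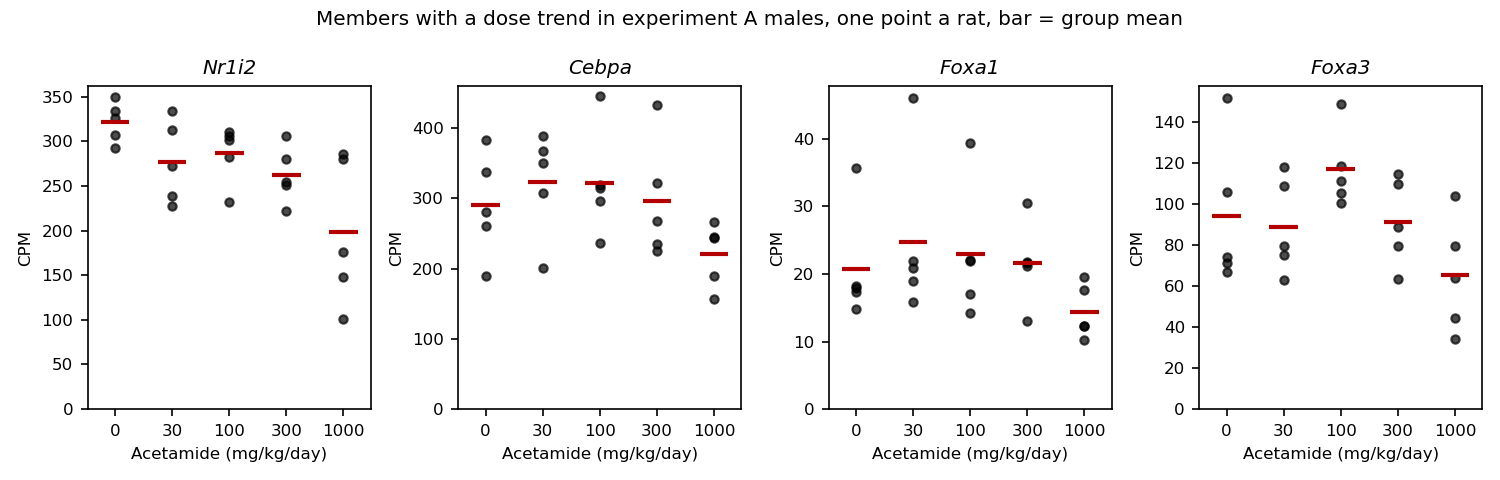
CPM of Nr1i2, Cebpa, Foxa1 and Foxa3 in each male of experiment A against dose in mg/kg/day, where a point is a rat and a bar the mean of 5 rats. Nr1i2 is the gene whose 5 rats at 1000 mkd all lie below the vehicle rats, and the other genes overlap.

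Cell type markers moved in the same rats. The summed level of the 10 hepatocyte markers lay between 287675 and 380711 CPM in the vehicle rats of experiment A and between 92784 and 279822 CPM at 1000 mkd, where 4 of the 10 were called lower and 0 higher, and none was at 0. Most of these sums was Alb, with means of 215091 CPM in vehicle rats and 112303 CPM at 1000 mkd. At 1000 mkd, replicates 1 and 3 had the highest hepatocyte sums (252934 and 279822 CPM) and the highest Nr1i2 (280 and 286 CPM), and replicate 2 had the lowest of both (92784 and 101 CPM). Of 11 macrophage markers measured 8 were called higher, with sums from 646 to 1790 CPM in vehicle rats and from 1478 to 2637 CPM at 1000 mkd. Of 11 markers of T and NK cells 10 were called higher, with sums from 29.5 to 37.8 CPM in vehicle rats and from 52.2 to 93.4 CPM at 1000 mkd. Of 5 endothelial markers 3 were called higher, among them Cdh5 (log2 1.82) and Lyve1 (log2 0.96), and of 8 stellate markers 1, Pdgfrb (log2 0.70). Not all other cell types went up. The erythroid markers summed to between 183 and 279 CPM in vehicle rats and between 16.5 and 93.5 CPM at 1000 mkd, without overlap, and 2 of 3 tested were called lower, Hbb (log2 -2.30) and Alas2 (log2 -2.39). Of 3 neutrophil markers tested 2 were called lower, and of 4 cholangiocyte markers 0 were called. The part of these markers in the fall of the members was not tested. In bulk liver, fewer cells of a type and less RNA per cell cannot be told apart.

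In males of experiment B dosed for 28 days, Ppara and Foxa3 fell. Ppara was at 50.8, 54.5, 30.7, 45.0 and 25.8 CPM in vehicle rats and at 17.3, 16.5, 27.5, 19.1 and 14.5 CPM at 1000 mkd, where 4 of 5 rats were below every vehicle rat (0.468-fold, log2 -1.10, SE 0.26, adjusted p = 0.0274; 4.48% of all genes called). At 1500 mkd the rats were at 27.9, 14.2, 27.0, 36.4 and 46.5 CPM, which overlapped the vehicle rats (log2 -0.41), and the contrast and the slope with dose were not called (slope -0.38, SE 0.17, adjusted p = 0.0934). The lowest group mean of Ppara in these males was thus at 1000 mkd. The call at 1000 mkd was lost without vehicle replicate 2 (adjusted p = 0.0841) or replicate 2 or 5 at 1000 mkd (0.0749 and 0.0772). The summed hepatocyte markers lay between 212421 and 277106 CPM in these vehicle rats and between 201902 and 259763 CPM at 1000 mkd. The sum of 4 cholangiocyte markers went from a range of 8.88 to 17.3 CPM to one of 19.0 to 31.9 CPM, without overlap. Sums of the macrophage markers went from between 427 and 935 to between 829 and 1387 CPM, and those of T and NK cells from between 14.9 and 35.5 to between 31.9 and 55.9 CPM, with overlap in both. Their part in the level of Ppara was not tested.

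Foxa3 was at 138, 52.9, 75.7, 100 and 96.4 CPM in vehicle males of 28 days and at 49.8, 80.9, 51.7, 61.7 and 41.5 CPM at 1500 mkd. Its slope was -0.44 per 1000 mkd (SE 0.15, adjusted p = 0.0277), called in all 30 fits that left out 1 rat, while 24.5% of all genes were called. The contrast at 1500 mkd was 0.627-fold (SE 0.25 on the log2 scale) and missed the threshold (adjusted p = 0.0945). In the rats at 1500 mkd the cholangiocyte markers summed to between 18.1 and 31.4 CPM, above all the vehicle rats, with 0 of 4 called in this contrast. The hepatocyte markers summed to between 123733 and 240862 CPM, with 1 of 10 called higher and 0 lower in this contrast. The lowest of these sums was that of replicate 3. By the trend with dose, 5 of 11 macrophage and 5 of 8 stellate markers were called higher. So were 2 of 4 cholangiocyte markers and 1 of 8 of T and NK cells, with 0 lower in each of these lists. Of the hepatocyte markers 1 of 10 was called higher and 2 lower by the trend. No endothelial, neutrophil or erythroid marker was called by it. The part of these markers in the level of Foxa3 was not tested. In the other experiment B data sets Foxa3 slopes were 0.06 in males of 7 days, -0.07 in females of 7 days and 0.04 in females of 28 days, none of which was called. The change of Foxa3 at 1500 mkd was 0.90 lower on the log2 scale at 28 than at 7 days in males (SE 0.39), with an unadjusted p of 0.0258 and an adjusted p of 0.998.

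**Figure D4:**
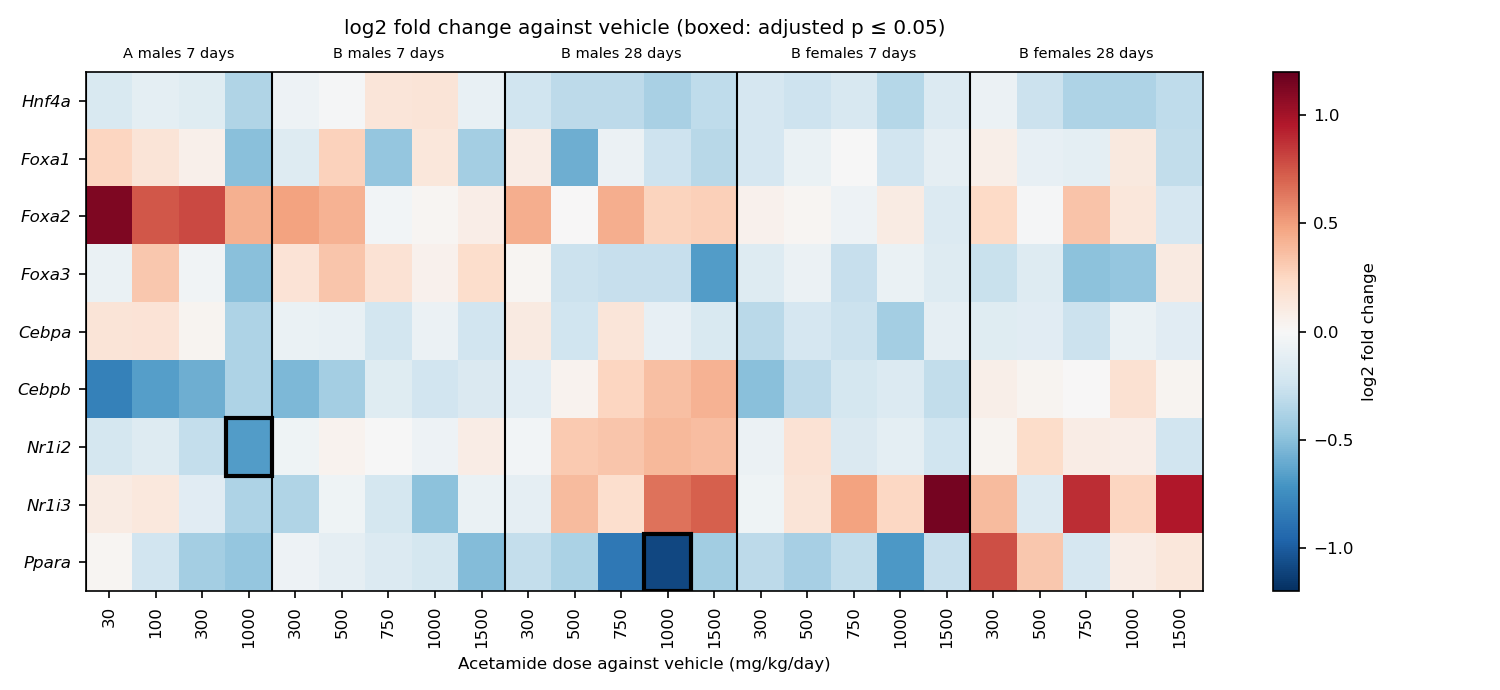
log2 fold change of each member against the vehicle rats of its data set at each dose in mg/kg/day (red higher, blue lower), with a box where the adjusted p was at most 0.05. The boxes are Nr1i2 at 1000 mkd in experiment A and Ppara at 1000 mkd in males of 28 days.

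No other contrast of a member with vehicle was called by edgeR with all rats and doses of a data set in the fit and no covariate. In experiment A 0 of 9 members were called at 30, 100 and 300 mkd, with 2 members at an unadjusted p under 0.05 at each of these doses, and 0% of all genes were called. Those members were Foxa2 and Cebpb. Foxa2 was at 29.9, 18.9, 24.1, 15.9 and 22.2 CPM in vehicle rats and at 89.9, 31.8, 48.0, 34.8 and 36.6 CPM at 30 mkd, all 5 above the vehicle rats (2.18-fold, unadjusted p = 0.00205, adjusted p = 1.00). Cebpb had a vehicle rat at 173 CPM beside others from 46.8 to 77.1 CPM, and averaged 46.3 ± 5.06 CPM at 30 mkd (0.572-fold, adjusted p = 1.00). The trend with dose was called for neither.

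In males of experiment B dosed for 7 days 0 of 9 members were called at any dose by edgeR or DESeq2, and 0 had an unadjusted p under 0.05 in a contrast. All genes were called at 0% from 300 to 1000 mkd and at 0.186% at 1500 mkd. The trend was called for 0 members by both tools, 1 member (Ppara, slope -0.33, SE 0.15) had an unadjusted p under 0.05, and 2.52% of all genes were called. In males of 28 days 0% of all genes were called at 300 and 500 mkd, 1.21% at 750 mkd and 7.34% at 1500 mkd, with 0 members called at these doses and 0, 2, 2 and 2 members at an unadjusted p under 0.05. DESeq2 called Ppara at 750 mkd (adjusted p = 0.0247) and Hnf4a at 1000 mkd (adjusted p = 0.0422) as well. In females of 7 days 0 members were called at any dose by edgeR, against 0.0087% of all genes at 300 mkd, 0.0174% at 500 and at 750 mkd, 1.52% at 1000 mkd and 0.757% at 1500 mkd, and in 2 contrasts a member had an unadjusted p under 0.05. In females of 28 days 0 members were called by edgeR, against 0%, 0.0437%, 0.21%, 1.91% and 19.4% of all genes from 300 to 1500 mkd, and 5 contrasts of a member had an unadjusted p under 0.05. DESeq2 called 1 member, Nr1i3 at 1500 mkd, in each of the female data sets. The shares of all genes are those of edgeR, and the shares called by DESeq2 were not counted. With a fold of at least 1.5 asked as well, 21.4% of all genes were called at the highest dose in experiment A, 0.177% and 4.91% in males of 7 and 28 days, and 0.705% and 13.1% in females of 7 and 28 days.

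Hnf4a, the central receptor of the hepatocyte, was not called by edgeR in any contrast with vehicle, trend with dose or comparison of vehicle groups when all rats were kept and the trend was taken on dose. It lay near the threshold in males and females of 28 days. The trend in females of 28 days was called with dose ranks (adjusted p = 0.0468) and in 3 of the 30 fits that left out 1 rat, namely vehicle replicate 4, replicate 3 at 300 mkd or replicate 3 at 1500 mkd (adjusted p from 0.0159 to 0.0484). The trend in males of 28 days was called in 4 of 30 such fits, without vehicle replicate 3, replicate 5 at 300 mkd or replicate 4 or 5 at 1500 mkd (from 0.0254 to 0.0465). In the same males the contrast at 1000 mkd was called by DESeq2 (adjusted p = 0.0422) and by edgeR without replicate 3 at 1500 mkd (adjusted p = 0.0378). In experiment A it was at 820 ± 168 CPM in vehicle rats and 626 ± 88.5 CPM at 1000 mkd (0.777-fold, adjusted p = 0.0902). In males of 28 days it went from 899 ± 130 CPM in vehicle rats to 674 ± 131 CPM at 1000 mkd (0.763-fold, adjusted p = 0.0933) and 715 ± 126 CPM at 1500 mkd. In females of 28 days it was at 879 ± 196 CPM and, at 1500 mkd, 713 ± 161 CPM, with a slope of -0.23 (SE 0.10, adjusted p = 0.0749). In females of 7 days it was at 958 ± 187 CPM and, at 1500 mkd, 852 ± 183 CPM. In males of 7 days it was at 736 ± 107 CPM and, at 1500 mkd, 688 ± 155 CPM, with means of 815 CPM at 750 and at 1000 mkd. Cebpb slopes lay between -0.06 and 0.37 and Foxa2 slopes between -0.25 and 0.13 per 1000 mkd, and none was called.

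The response at the highest dose was set side by side between the data sets. The change at 1500 mkd differed between the sexes for 0 of 9 members at 7 and at 28 days, and between 28 and 7 days for 0 of 9 in males and in females, by edgeR and by DESeq2, with 1, 0, 1 and 0 members at an unadjusted p under 0.05 and 0% of all genes called in each. The change at 1000 mkd differed between experiments A and B in males of 7 days for 0 of 9 members by both tools (1 at an unadjusted p under 0.05, Hnf4a, log2 -0.51, SE 0.21, adjusted p = 0.177), and 0% of all genes were called. Vehicle males of the experiments differed for 0 of 9 members by both tools, with 0 at an unadjusted p under 0.05, while 1.51% of all genes were called. Vehicle males of 28 and 7 days differed for 0 of 9 members by both tools, with 0 at an unadjusted p under 0.05 and 0.0356% of all genes called. In experiment A Nr1i2 was at 0.627-fold at 1000 mkd, whereas in males of experiment B at the same dose and duration it was at 252 ± 38.5 CPM against 263 ± 46.0 CPM in vehicle rats. The difference between these changes was not called.

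Genes known as targets of these regulators were counted at the highest dose. In experiment A 18 of 27 HNF4α targets tested were called lower and 0 higher, with a median log2 fold change of -0.74, against 14.2% of all genes called lower and 16.5% higher. Apoa4, an apolipoprotein, fell from 1303 to 335 CPM (log2 -1.93, adjusted p = 0.00014). Of 13 FOXA targets 7 were called lower and 0 higher (median -0.87), among them Slc10a1, the bile acid importer, from 897 to 358 CPM (log2 -1.29, adjusted p = 0.00238), and Ttr, which codes for transthyretin, from 14425 to 7150 CPM. Of 18 genes of C/EBP targets and the acute phase 8 were called lower and 0 higher (median -0.74), among them Fgg, a fibrinogen chain, from 8809 to 4082 CPM. Of 38 PPARα targets 18 were called lower and 1 higher (median -0.64), with Decr1, an enzyme of fatty acid oxidation, going from 389 to 155 CPM and Fabp1 from 3275 to 1387 CPM, while Acot1 rose from 0.608 to 5.96 CPM. Several genes stand on more than 1 list. Of the regulators themselves, Nr1i2 was called at this dose and the other 8 were not. The hepatocyte markers given above moved in the same rats. Most of them are themselves on these target lists, namely Alb, Ttr, Apoa1, Tf, Serpina1, Fgb, Cps1 and Hamp. The markers and the target counts are therefore not separate measures, and the part of the markers in these counts was not tested.

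CAR and PXR targets went both ways. In experiment A 4 of 23 were called higher and 6 lower (median log2 fold change -0.33), against 16.5% and 14.2% of all genes. Abcb1b, a drug efflux transporter, rose from 6.70 to 62.8 CPM (log2 3.25, adjusted p = 5.6e-06) and Abcc3 from 3.44 to 12.6 CPM, whereas Sult2a1, a sulphotransferase, fell from 1078 to 330 CPM and Gsta2 from 4.70 to 1.74 CPM. In females of 28 days, where Nr1i3 was highest at 1500 mkd, 3 of 23 were called higher and 4 lower, with a median of -0.18, against 11.3% and 8.19% of all genes. Abcb1b was again higher (from 6.14 to 45.9 CPM, adjusted p = 0.000536) and Ugt1a1 lower (from 167 to 83.0 CPM, adjusted p = 0.0166). Cyp2b1 and Cyp2b2, the classic CAR targets of rat liver, chosen here after their values were seen, were not called there (log2 1.43, SE 0.59, adjusted p = 0.0869, and log2 1.27, SE 0.61, adjusted p = 0.147). Abcb1b was the target called higher in females of 7 days (from 3.33 to 43.2 CPM, 1 of 23 higher and 0 lower) and in males of 7 days (from 3.51 to 25.3 CPM, 1 of 23 higher and 0 lower), where 0.531% and 0.150% of all genes were called higher. In males of 28 days 1 of 23 was called higher (Abcc3, from 3.63 to 9.79 CPM) and 2 lower (Abcc2 and Ugt1a1), against 4.36% and 2.98% of all genes. By the trend with dose, 5 of 23 were called higher and 0 lower in females of 7 days (5.44% of all genes called either way). These counts were 4 and 7 in females of 28 days (27.3%) and 1 and 1 in males of 7 days (2.52%). They were 6 and 2 in males of 28 days (24.5%) and 5 and 9 in experiment A (45.9%). Genes of these families have close paralogues, between which the counting may split reads.

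At 1500 mkd in females of 28 days 10 of 27 HNF4α targets were called lower and 1 higher (median -0.48), 3 of 13 FOXA targets lower, 5 of 18 C/EBP and acute phase genes lower and 4 of 37 PPARα targets lower with 1 higher, against 8.19% of all genes lower and 11.3% higher. Pklr, liver pyruvate kinase, fell from 326 to 93.7 CPM, Alb, albumin, from 196420 to 99313 CPM, and Apoa1 rose from 2246 to 4244 CPM. In males of 28 days the counts were 1 of 27, 2 of 13, 0 of 18 and 1 of 38 lower, and 1 PPARα target was higher, against 2.98% of all genes lower and 4.36% higher. Apob went from 11057 to 6660 CPM there. In males of 7 days 3 of 38 PPARα targets were called higher, where 0.150% of all genes were, among them Acot1 (from 1.17 to 35.9 CPM, adjusted p = 0.00153) and Acot3 (from 30.7 to 71.9 CPM). In females of 7 days 1 HNF4α target, F7, 1 acute phase gene, Itih4, and no FOXA target were called lower, and Acot1 was the PPARα target called higher (from 4.86 to 51.0 CPM), against 0.226% of all genes lower and 0.531% higher. Acot1 was called higher in all 5 data sets, whereas Ppara itself was called at none of the highest doses.

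**Figure D5:**
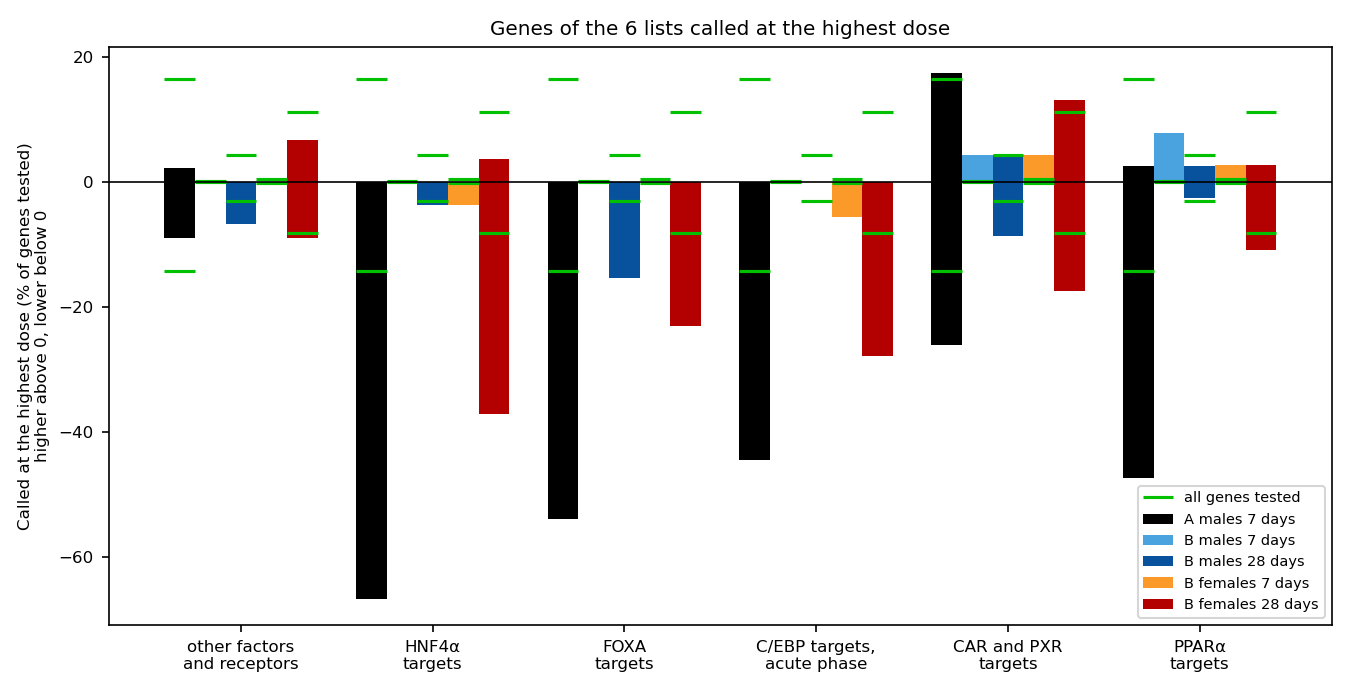
Share of the tested genes of 6 lists called higher (above 0) or lower (below 0) at the highest dose of each data set, in percent, with the share of all tested genes as green lines and the data sets in the colours named in the legend. In experiment A the target lists of HNF4α, FOXA, C/EBP and PPARα and, by less, that of CAR and PXR reach further below 0 than all genes. The list of other factors does not.

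A list of 49 other hepatocyte factors and receptors was counted as well. In experiment A 1 of 45 tested was called higher (Gata4, from 21.9 to 32.9 CPM) and 4 lower (median -0.14), against 16.5% and 14.2% of all genes. The lower genes included Thrb, a thyroid hormone receptor, from 59.4 to 31.2 CPM and Atf5 from 608 to 342 CPM. In females of 28 days 3 of 45 were called higher and 4 lower (median -0.24), against 11.3% and 8.19% of all genes, with Thrb going from 55.1 to 32.1 CPM and Srebf1, which drives lipid synthesis, from 177 to 83.5 CPM. In males of 28 days 0 were called higher and 3 of 45 lower (median -0.20), against 4.36% and 2.98% of all genes. Rxra, the partner that PXR, CAR and PPARα need to bind DNA, was at 141 CPM in vehicle males and 51.7 CPM at 1500 mkd, with all 5 rats below all vehicle rats (log2 -1.41, SE 0.29, adjusted p = 0.00880). In males and females of 7 days 0 genes of this list were called at the highest dose, where 0.186% and 0.757% of all genes were.

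The levels of several members followed clock genes within groups. A clock score was taken for each rat as the mean log2 CPM of Dbp, Tef, Nr1d1, Per3 and Ciart minus that of Arntl, Npas2, Clock and Nfil3. Over all rats, on deviations from the group means, Foxa1 had the r farthest from 0 among the 9 members, with Pearson r = -0.61 and Spearman rho = -0.62 with the score, each with a permutation p of 1e-05, the smallest that 100000 permutations within groups can give, and 4.5e-05 after adjustment over the 9 members. Without the 2 rats farthest from the median score r was -0.61. Within data sets r was -0.38 in experiment A, -0.64 and -0.47 in males of 7 and 28 days, and -0.87 and -0.79 in females of 7 and 28 days. The genes most like Foxa1 were Hhex (r = 0.81), Zswim4 (r = 0.78) and B3gnt2 (r = 0.77). Other members had the r farthest from 0 in the males of experiment A and in those of 28 days. Cebpa had r = 0.75 in experiment A, and its trend there was called with the score in the fit as well (slope -0.41, adjusted p = 0.0173). Its r was 0.26 over all rats and differed in sign between data sets. It was 0.58 in males and in females of 28 days, and -0.13 and -0.54 in males and females of 7 days. Nr1i2 had r = 0.41 with the score over all rats, from 0.07 in males of 7 days to 0.74 in males of 28 days. With the clock score in the fit, Foxa1 was called lower at 1000 mkd in females of 7 days (log2 -0.69, adjusted p = 0.0333), against -0.23 without it. Nr1i3 was called higher at 1500 mkd in females of 7 days (1.25, adjusted p = 0.0450) and of 28 days (1.07, adjusted p = 0.0158). In females of 7 days 10 contrasts of a member had an unadjusted p under 0.05 with the score in the fit, against 2 without it. The share of all genes called with the score was not counted. The score itself averaged 0.17 in the vehicle females of 7 days and -1.45 at 1000 mkd, so score and dose cannot be fully told apart there.

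The genes most like the remaining members within groups were Ints5 for Hnf4a (r = 0.64), Rtp3 for Foxa2 (r = 0.72), Nags for Foxa3 (r = 0.66), Plk3 for Cebpb (r = 0.72), Pnpla7 for Nr1i2 (r = 0.77) and Sel1l for Ppara (r = 0.72), each over all rats and 11066 genes. Klf9 stood beside Lrp3 for Cebpa (r = 0.69). Map1lc3b and Fbxo31 followed Nr1i2 at r = 0.77 and 0.76.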

How the data were processed

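Per the labels and the study's methods, the authors sequenced mRNA (TruSeq Stranded, left liver lobe), trimmed the reads with Trimmomatic, aligned them with Bowtie2 to Rn6, counted them on genes with HTSeq and deposited raw counts of 5 data sets. Replicates are separate rats. Summary lines for reads on no gene, 35.5 to 67.1% of the counts in experiment B, were left out.

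Tests on the counts were run in R 4.3.3 by the quasi-likelihood method of edgeR 4.0.16 (TMM, filterByExpr, all groups of a data set in 1 fit) on 11279 to 11497 genes, with Benjamini-Hochberg adjustment over all of them. A gene was called at an adjusted p of at most 0.05. Shares of all genes called are those of edgeR with all rats and no covariate throughout, so calls by DESeq2 and by the other alternatives stand without such a share. Trends took dose as a number. Vehicle comparisons, changes at 1500 mkd and experiments used fits of 20, 40 and 20 rats. As alternatives, DESeq2 1.42.0 (Wald test, or only its size factors in edgeR), other filters on counts (none, or a minimum of 10 in each rat), a fold of at least 1.5, dose ranks, the vehicle and tested dose alone, and fits with the replicate block, with the clock score or without 1 rat were tried. The edgeR contrast of the highest dose with vehicle and the edgeR trend were run on simulated data for each data set. The other comparisons, DESeq2 and the clock permutations were not.

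The members and gene lists were chosen with earlier results of these data known, and list counts are descriptions. All members are named. List genes named at the highest dose are at most 2 called each way by fold change with a mean of at least 1 CPM, and the genes most alike are the first by Pearson r of log2 CPM (prior count 2) within groups. Pairs of identical columns numbered 0. Promoter sequences are from RefSeq (GRCr8), matched by symbol.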

Additional observations from a re-analysis of the deposited data

Results flagged for a closer look

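Of 261 combinations of a member and a group of 5 rats, 26 held a rat whose gap to the nearest rat took more than 0.71 of the range of the group (Dixon's test), which chance gives in about 1 of 20. The values in CPM follow by gene, each with that of the nearest rat. For Hnf4a, replicate 4 of experiment B males of 7 days at 750 mkd was the lowest at 670.1 (nearest 835.8). For Foxa1, replicate 4 of experiment A males given vehicle was the highest at 35.61 (nearest 18.15) and replicate 1 of experiment A males at 30 mkd was the highest at 46.03 (nearest 21.94). For the same gene, replicate 3 of experiment B males of 28 days given vehicle was the highest at 49.29 (nearest 29.68) and replicate 1 of experiment B males of 28 days at 1000 mkd was the highest at 53.51 (nearest 23.39). For Foxa2, replicate 1 of experiment A males at 30 mkd was the highest at 89.9 (nearest 47.99) and replicate 4 of experiment B males of 28 days at 500 mkd was the highest at 76.06 (nearest 33.64). For Foxa3, replicate 2 of experiment B females of 7 days given vehicle was the lowest at 40.29 (nearest 57.95) and replicate 2 of experiment B females of 28 days at 300 mkd was the highest at 87.8 (nearest 43.41). For Cebpa, replicate 2 of experiment B males of 7 days at 500 mkd was the highest at 398.8 (nearest 311.2) and replicate 2 of experiment B males of 28 days given vehicle was the lowest at 239.2 (nearest 353). For the same gene, replicate 4 of experiment B females of 7 days at 750 mkd was the highest at 413.9 (nearest 264.3) and replicate 4 of experiment B females of 28 days at 1500 mkd was the lowest at 212.2 (nearest 303.3). For Cebpb, replicate 4 of experiment A males given vehicle was the highest at 172.5 (nearest 77.13) and replicate 2 of experiment B males of 7 days at 500 mkd was the highest at 99.74 (nearest 46.96). For the same gene, replicate 4 of experiment B males of 28 days at 300 mkd was the lowest at 40.38 (nearest 54.14) and replicate 1 of experiment B males of 28 days at 500 mkd was the highest at 105.4 (nearest 58.01). In addition, replicate 1 of experiment B females of 7 days at 1000 mkd was the highest at 125.4 (nearest 65.2) and replicate 4 of experiment B females of 7 days at 1500 mkd was the highest at 101.7 (nearest 57.33). Further, replicate 3 of experiment B females of 28 days at 300 mkd was the highest at 118.3 (nearest 59.31). For Nr1i2, replicate 3 of experiment B males of 7 days given vehicle was the highest at 341 (nearest 257.7) and replicate 3 of experiment B males of 28 days at 1500 mkd was the lowest at 151.3 (nearest 367.6). For the same gene, replicate 2 of experiment B females of 28 days at 1000 mkd was the highest at 544.2 (nearest 330.6). For Nr1i3, replicate 5 of experiment B females of 7 days at 1500 mkd was the highest at 108.3 (nearest 64.2). For Ppara, replicate 5 of experiment B males of 7 days at 1500 mkd was the highest at 60.61 (nearest 29.36) and replicate 3 of experiment B females of 28 days at 1500 mkd was the highest at 27.21 (nearest 15.99).

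Vehicle replicate 4 of experiment A stood apart for Foxa1 and Cebpb, and replicate 1 at 30 mkd for Foxa1 and Foxa2. Replicate 3 of the males of 28 days at 1500 mkd, lowest for Nr1i2, also had the lowest sum of hepatocyte markers of its group (123733 CPM). What set these rats apart was not tested.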

How the results depend on the processing

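Counts of called members were recomputed under each alternative, and 126 of those that kept all rats stayed within 1.5 times the main count, with the exceptions given here. A fold of at least 1.5 left 2 trends in experiment A (Foxa1 and Foxa3) in place of 4, and 0 in males of 28 days in place of 1. DESeq2 called 2 members at any dose in males of 28 days in place of 1, and 1 in place of 0 at any dose in females of 7 days, at any dose in females of 28 days, in the trend of females of 28 days and between 28 and 7 days in vehicle females. With the clock score in the fit 2 members were called at any dose in females of 7 days, 1 at any dose and 1 in the trend in females of 28 days, each in place of 0. With vehicle and the tested dose alone 0 members were called in experiment A in place of 1. With dose ranks 1 trend was called in experiment A in place of 4, 2 in males of 28 days in place of 1 and 1 (Hnf4a) in females of 28 days in place of 0. The causes were not tested.

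Without 1 rat, the counts ranged from 0 to 2 at any dose and from 1 to 6 in the trend of experiment A, from 0 to 3 and from 1 to 3 in males of 28 days, from 0 to 1 at any dose in females of 7 days, from 0 to 1 for both in females of 28 days, from 0 to 1 between 28 and 7 days in vehicle females and from 2 to 3 between the sexes at 28 days. The other counts did not change. No called change of a member reversed. Replicate numbers follow the order in a group, so same-number pairs and the replicate block in experiment A need not join rats that share a label number. Pairs of rats with the same replicate number in different groups had a median correlation of 0.026 in experiment A, against -0.009 in other pairs. In experiment B these medians ran from -0.025 to 0.026 and from -0.012 to -0.0001. A correlation over 0.1 was seen in 42% of same-number pairs in experiment A and in 29.3 to 32% in experiment B. That share was not counted for other pairs, so it cannot show whether such rats shared more than the number. The replicate block left 3 trends in experiment A in place of 4 and 3 members between the sexes at 28 days in place of 4, and changed no other count. Under the replicate block the slope of Cebpb in males of 7 days was -0.0013 in place of 0.02. Uncalled log2 fold changes at the highest dose that turned sign without 1 rat ranged, for Cebpb from -0.520 to 0.0988 in experiment A males, Foxa2 from -0.226 to 0.303, Cebpb from -0.340 to 0.0769 and Nr1i3 from -0.246 to 0.224 in experiment B males of 7 days, Foxa2 from -0.0944 to 0.461 in experiment B males of 28 days, Foxa1 from -0.440 to 0.0950, Foxa3 from -0.408 to 0.0191, Cebpa from -0.203 to 0.0796 and Cebpb from -0.530 to 0.0587 in experiment B females of 7 days, Foxa3 from -0.0392 to 0.341, Cebpa from -0.242 to 0.0254, Cebpb from -0.122 to 0.163 and Ppara from -0.0824 to 0.225 in experiment B females of 28 days. Uncalled slopes per 1000 mkd that did so ranged, for Cebpb from -0.0316 to 0.283 in experiment A males, Hnf4a from -0.0258 to 0.0681, Foxa3 from -0.0225 to 0.116, Cebpb from -0.0793 to 0.160 and Nr1i3 from -0.156 to 0.0801 in experiment B males of 7 days, Foxa2 from -0.0605 to 0.229 in experiment B males of 28 days, Foxa1 from -0.231 to 0.0442, Foxa3 from -0.206 to 0.0193, Cebpa from -0.128 to 0.0439 and Cebpb from -0.179 to 0.126 in experiment B females of 7 days, Foxa3 from -0.0761 to 0.156, Cebpa from -0.0916 to 0.0221 and Cebpb from -0.0328 to 0.0975 in experiment B females of 28 days. Every member had at least 199 counts in every rat, so the spread between rats and not depth limited these tests.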
